A study of Mus musculus with 8 samples.

Results

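Embryonic kidneys taken 1 and 3 days after the end of chlorpyrifos dosing were compared with kidneys of solvent controls at the same stages. The comparison covers 4 of the 8 RNA-seq libraries of the study: 1 CPF and 1 DMSO library at E12.5, and 1 of each at E14.5. Pregnant ICR mice, an outbred stock, had received chlorpyrifos (CPF) at 5 mg per kg under the skin once a day from gestation day 7.5 to 11.5, dissolved in dimethyl sulfoxide. The DMSO group had received the same volume of dimethyl sulfoxide alone on the same days, so both groups carry the solvent and the injections. The sources used here do not give the number of embryos or litters behind a library. Each gene was read as TPM (a level per transcript length, scaled so that each library sums to 1000000), summed over its RefSeq transcripts, and compared as log2(TPM + 1) within each stage. A difference on this scale understates the change of genes near or below 1 TPM. Genes with the same sign at both stages are described, the CPF value minus the DMSO value.

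Chlorpyrifos is an organophosphate insecticide. Its oxon, made in the liver, blocks acetylcholinesterase, the enzyme that clears acetylcholine, and also other serine hydrolases. The dosing window ends as the ureteric bud enters the metanephric mesenchyme. Mesenchymal cells that express Six2 (nephron progenitors) then secrete GDNF, which draws out branches of the bud, while Foxd1-expressing stroma surrounds them. Hox genes of the eleventh paralogue group set up this mesenchyme, and Pax2, Sall1 and Eya1 act beside them.

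The libraries held an estimated 19.5 and 20.9 Mreads (1 Mread is 1000000 reads) for CPF, and 26.7 and 19.1 Mreads for DMSO, the younger stage first. The estimate comes from the spacing of low TPM values, where 54.3 to 57.3% of low values in these 4 libraries lay within 0.02 of a whole read. For a transcript of 1 kb, a single read gave 0.0808 to 0.101 TPM. At least 1 TPM was reached by 12507 and 12870 genes in the CPF libraries, against 11950 and 12458 in the DMSO libraries. The RNase P and RNase MRP RNAs took 19.3 and 20.7% of the TPM in CPF libraries, against 19.6 and 23.6% in DMSO libraries. The kidney label was borne out by Six2, Foxd1, Wt1 and Sall1, which were at 18.1 TPM or more in all 4 libraries. Genes with several RefSeq transcripts were mostly near 0 in these files, and a low level there is given only as listed.

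Of 12747 genes tested, 7926 (62.2%) had the same sign at both stages, 3419 (26.8%) higher and 4507 (35.4%) lower in CPF. All genes together had a median log2 ratio of -0.15 (E12.5) and 0.02 (E14.5). Among the 9315 genes averaging 5 TPM or more, 137 (1.47%) were more than 2-fold higher in CPF at both stages and 23 (0.247%) more than 2-fold lower. Another 18 (0.193%) passed 2-fold in opposite directions. At E12.5 alone 4.39% were more than 2-fold higher and 1.76% lower, and at E14.5 alone 3.4% and 1.16%. The higher set held 108 coding genes, and the lower set held 11. The higher set included genes of red blood cells, the immediate early factors Fos, Fosb and Junb, plasma proteins of the liver and contractile proteins. The coding genes of the lower set included Hoxc11, Hoxd12, Foxc2, Foxd1 and Foxd2.

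The limma fit of the 4 libraries, with stage and agent as terms, called 587 genes higher (4.61% of those tested) and 247 lower (1.94%) in CPF at an adjusted p under 0.05. Its spread is the disagreement between the 2 stages, with 1 residual degree of freedom per gene, so each gene's error was almost wholly the one pooled over genes. Without the stage term the same 4 libraries gave 0 calls either way, with 412 higher and 195 lower genes at an unadjusted p under 0.05. With quantile normalization 4 genes were called higher and 0 lower (944 and 1096 at an unadjusted p under 0.05). A fit of all 8 libraries, with a separate CPF effect for the 2 later stages, called 84 higher (0.659%) and 9 lower (0.0706%), all of them among the calls of the 4 libraries. Leaving out 1 of the 4 libraries, with no stage term, gave 0 to 338 genes called higher and 0 to 48 called lower, with 0 each way without either DMSO library. Nothing shows that the libraries are independent animals, so these p-values measure only the spread between libraries, and a call below means the fit of 4 libraries.

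**Figure D1:**
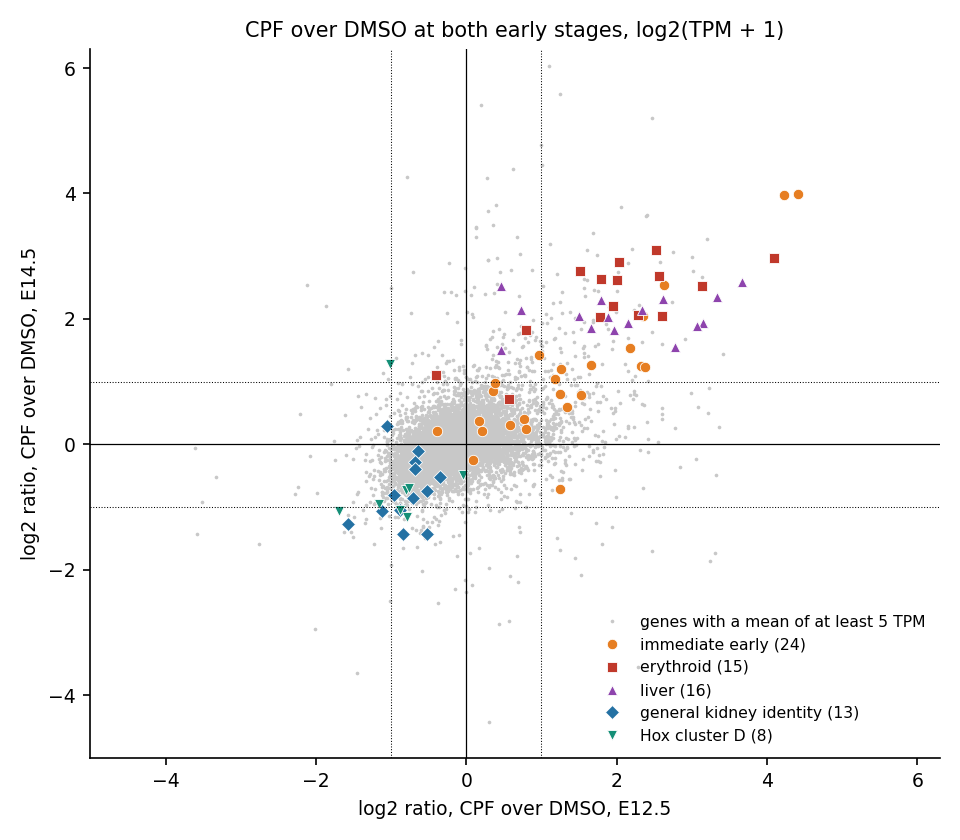
Log2 ratio of CPF over DMSO at E14.5 (vertical) against that at E12.5 (horizontal), on the log2(TPM + 1) scale. Grey points are genes averaging 5 TPM or more, coloured points are the tested members of 5 gene lists (numbers in brackets), and dotted lines mark 2-fold. Immediate early, erythroid and liver genes lie mostly in the upper right, and 12 of 13 kidney identity genes lie below 0 on both axes.

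Immediate early genes were higher in CPF kidneys at both stages. These genes are transcribed within minutes of a stimulus without new protein synthesis, and Fos and Jun proteins pair as the AP-1 transcription factor. Of 24 tested members of the list, 21 were higher at both stages and 0 lower, where 26.8% and 35.4% of all genes were. Of the same 24, 12 were called higher, where 4.61% of all genes were. The list's median log2 ratio was 1.25 at E12.5 and 0.91 at E14.5. Fos had 121 and 81.4 TPM in CPF kidneys at E12.5 and E14.5, against 5.54 and 4.24 TPM in DMSO kidneys. The fitted log2 difference was 4.10 ± 0.26 (difference ± SE, n = 2 pairs of libraries, limma adjusted p = 9.89e-35). In the fit of 4 libraries each SE rests almost wholly on the spread pooled over genes. It does not show how well a gene's own 2 pairs agree. Fosb, its close relative, stood at 42.6 and 22.8 TPM in CPF kidneys and at 1.05 and 0.496 TPM in DMSO kidneys, a difference of 4.20 ± 0.32. At each stage the CPF value of both genes lay far above the DMSO value. Both genes were picked for the size of their difference in these same libraries.

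Junb, the JUN family member that pairs with FOS proteins, had 57.3 and 27.7 TPM in CPF kidneys, against 8.40 and 3.96 TPM in DMSO kidneys (2.58 ± 0.28; adjusted p = 3.79e-15). The zinc finger factor Egr1 showed 56.4 and 27.4 TPM in CPF kidneys, against 10.2 and 5.86 TPM in DMSO kidneys. All 4 of these factors had a lower level at E14.5 than at E12.5 in both agents. Cyr61, a matricellular protein gene, had 117 and 65.8 TPM in CPF kidneys and 24.9 and 22.1 TPM in DMSO kidneys (1.86 ± 0.24). Fos, Fosb, Junb, Egr1 and Cyr61 were also called in the fit of 8 libraries. Atf3, a stress-induced factor, rose by 1.78 ± 0.32, and Btg2, an antiproliferative gene, by 1.23 ± 0.25. The MAP kinase phosphatase gene Dusp1 had 30.8 and 25.0 TPM in CPF kidneys, against 15.3 and 8.63 TPM in DMSO kidneys, a rise of 1.20 ± 0.27. Members that did not pass include Jun, with 79.3 and 44.5 TPM in CPF kidneys and 61.5 and 24.3 TPM in DMSO kidneys (adjusted p = 0.121), and Ier2, with 59.5 and 22.6 TPM in CPF kidneys and 51.3 and 19.3 TPM in DMSO kidneys. 

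The promoters of the 3 AP-1 genes that rose most are printed below because members of one factor family moved together. They are RefSeq windows of 250 bases before to 50 after the annotated start (GRCm38.p6): Fos at chr12:85473640-85473939 on the plus strand, Fosb at chr7:19309996-19310295 and Junb at chr8:84978699-84978998 on the minus strand. Capitals mark TGACG, the core of the cyclic AMP response element, searched on both strands.
Fos: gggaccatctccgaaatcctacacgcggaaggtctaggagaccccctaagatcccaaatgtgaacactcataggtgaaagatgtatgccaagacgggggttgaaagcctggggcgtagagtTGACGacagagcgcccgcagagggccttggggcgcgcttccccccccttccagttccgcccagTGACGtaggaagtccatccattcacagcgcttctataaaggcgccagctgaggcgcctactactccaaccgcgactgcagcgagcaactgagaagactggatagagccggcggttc
Fosb: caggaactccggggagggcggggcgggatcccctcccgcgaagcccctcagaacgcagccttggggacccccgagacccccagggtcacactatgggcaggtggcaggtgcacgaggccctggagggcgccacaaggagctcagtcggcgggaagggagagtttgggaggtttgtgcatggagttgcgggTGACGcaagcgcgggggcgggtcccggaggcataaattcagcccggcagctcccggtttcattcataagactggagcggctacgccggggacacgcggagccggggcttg
Junb: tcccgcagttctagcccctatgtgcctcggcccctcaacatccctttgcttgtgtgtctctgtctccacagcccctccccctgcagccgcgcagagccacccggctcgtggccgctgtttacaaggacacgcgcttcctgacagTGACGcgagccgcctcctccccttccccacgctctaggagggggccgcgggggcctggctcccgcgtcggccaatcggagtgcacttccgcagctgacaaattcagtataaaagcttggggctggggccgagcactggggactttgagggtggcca
The core occurred 2 times in the Fos window and 1 time each in those of Fosb and Junb. It is common: 21.0% of 27025 promoter windows hold it, and 10 of the 20 list members with a window. The full palindrome TGACGTCA, which contains the core on each strand, was in 1.88% of all windows and in 2 of those 20, neither of them Fos, Fosb or Junb. A match is a run of letters, and no match says only that these letters are not in this window.

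Genes of red blood cells and their precursors were higher in CPF kidneys by several fold. Of 15 tested members of the erythroid list, 14 were higher at both stages, where 26.8% of all genes were. Of the same 15, 13 were called higher, where 4.61% of all genes were, and 6 were also called in the fit of 8 libraries. The list's median log2 ratio was 2.00 at E12.5 and 2.52 at E14.5. Slc4a1, the band 3 anion exchanger, had 109 and 249 TPM in CPF kidneys and 17.5 and 37.7 TPM in DMSO kidneys (2.63 ± 0.23; adjusted p = 1.77e-20). Hemgn (hemogen, a nuclear protein of blood precursors) had 15.5 and 71.4 TPM in CPF kidneys, against 0.872 and 11.6 TPM in DMSO kidneys (2.83 ± 0.29). Both were several times higher in CPF at each stage, and both had higher levels at E14.5 than at E12.5 in either agent.

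Outside the list, Rhd and Tspo2 are named because they were among the genes with the largest differences. Rhd, of the Rh blood group, had 23.5 and 79.4 TPM in CPF kidneys, against 2.03 and 10.9 TPM in DMSO kidneys, a rise of 2.89 ± 0.28. Tspo2 rose by 2.91 ± 0.34 and, of the list itself, Trim10 by 2.81 ± 0.28. The embryonic globins ran the other way in time. Hbb-y had 33813 and 15633 TPM in CPF kidneys, against 6940.3 and 3738 TPM in DMSO kidneys (2.17 ± 0.60; adjusted p = 0.00958), and Hba-x had 2400.1 and 1179 TPM in CPF kidneys, against 843 and 172 TPM in DMSO kidneys. These genes are made by the primitive red cells of the yolk sac and were lower at E14.5 than at E12.5 in both agents. The adult globin genes Hba-a1 and Hbb-bt, each with a near-identical neighbour, were listed at 0 in all 4 libraries, and no level can be read for them. The summed TPM of the 20 list members with a listed value, untested ones included, was 37143 and 18322 in CPF kidneys. In DMSO kidneys it was 8224 and 4322. Redrum, a long noncoding RNA of terminal red cell maturation in mouse, had 3.85 and 21.1 TPM in CPF kidneys and 0.434 and 3.05 TPM in DMSO kidneys. Blood is present in unperfused embryonic kidney, and how much of it each library holds was not tested apart from these markers. In bulk tissue, fewer or more cells of a type and less or more RNA per cell cannot be told apart.

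The promoters of Hemgn and Rhd are printed because erythroid genes moved as a block and GATA1 is the factor known to bind GATAA letters in such genes. The window of Hemgn lies at chr4:46404134-46404433 on the minus strand and that of Rhd at chr4:134864286-134864585 on the plus strand, with GATAA (both strands) in capitals.
Hemgn: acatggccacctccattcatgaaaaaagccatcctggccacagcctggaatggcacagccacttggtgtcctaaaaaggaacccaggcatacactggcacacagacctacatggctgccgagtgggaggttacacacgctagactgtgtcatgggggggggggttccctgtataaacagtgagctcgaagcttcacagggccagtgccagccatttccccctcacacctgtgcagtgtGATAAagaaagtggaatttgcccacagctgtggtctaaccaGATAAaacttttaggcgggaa
Rhd: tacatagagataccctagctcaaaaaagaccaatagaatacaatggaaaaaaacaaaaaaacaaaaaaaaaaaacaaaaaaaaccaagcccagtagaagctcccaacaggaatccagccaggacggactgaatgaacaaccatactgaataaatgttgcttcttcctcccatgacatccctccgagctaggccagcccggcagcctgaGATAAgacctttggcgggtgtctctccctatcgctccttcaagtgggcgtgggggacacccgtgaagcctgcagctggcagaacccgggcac
Hemgn held the letters 2 times and Rhd 1 time, and 25.8% of all 27025 windows held them, as did 10 of the 12 tested erythroid list members with a window, Rhd not being on the list. Gata1, itself a member of the erythroid list, had 3.46 and 18.48 TPM in CPF kidneys, against 0.297 and 3.79 TPM in DMSO kidneys. Whether GATA1 has a part in these differences was not tested.

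Lists of other organs differed in direction. Liver, adrenal cortex, nerve, muscle and myeloid genes were mostly higher, whereas of 8 tested genes of the Wolffian duct and mesonephros 6 were lower at both stages and 2 were called lower. Of 4 lung genes 3 were lower at both stages, and of 8 cartilage genes 1 was higher and 2 lower. Of 12 gonad genes 5 were higher and 1 lower at both stages. Of the same 12, 7 were called higher, 3 of them tested only through the CPF libraries, and 0 in the fit of 8 libraries. At E14.5 11 of them were higher, and the list with its untested members summed to 485 TPM in CPF against 60.5 TPM in DMSO. At E12.5 5 were higher, and the sums were 57.9 TPM in CPF and 74.5 TPM in DMSO. All 16 tested liver genes were higher at both stages and called, and 8 were also called in the fit of 8 libraries. Among all genes, 26.8% were higher and 35.4% lower at both stages, and 4.61% were called higher and 1.94% lower. Alb, serum albumin, had 60.9 and 1668 TPM in CPF kidneys, against 3.89 and 278 TPM in DMSO kidneys (3.12 ± 0.24; adjusted p = 8.36e-27). Afp, alpha-fetoprotein, had 76.5 and 1959 TPM in CPF kidneys and 6.64 and 383 TPM in DMSO kidneys. The summed TPM of the liver list was 251 and 5958 in CPF kidneys, against 28.6 and 1230.5 in DMSO kidneys, so the DMSO library of E14.5 was itself above the CPF library of E12.5. Of the 6 liver genes not tested, Ahsg and Fetub were listed at 0 in all 4 libraries, and both have several RefSeq transcripts.

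Adrenal cortex genes had larger ratios at E14.5, a difference between stages that was not tested. Of 12 tested, 11 were higher at both stages, where 26.8% of all genes were. Of the 12, 10 were called higher, where 4.61% of all genes were, and 1 also in the fit of 8 libraries. Of those 10, 2 passed the filter on low values only through the CPF libraries. Hsd3b1, a steroid dehydrogenase, had 5.79 and 233 TPM in CPF kidneys, against 0.218 and 5.38 TPM in DMSO kidneys (3.84 ± 0.31). Cyp11a1, the cholesterol side chain cleavage enzyme that starts steroid synthesis, had 5.03 and 47.4 TPM in CPF kidneys and 0.137 and 2.84 TPM in DMSO kidneys. The list summed to 122 and 903 TPM in CPF kidneys, against 64.4 and 110.1 TPM in DMSO kidneys. Akr1b7, expressed in adrenal cortex and in renin cells of the kidney, had 18.0 and 306 TPM in CPF kidneys, against 5.26 and 35.0 TPM in DMSO kidneys. Sympathoadrenal and neural genes followed with 15 of 19 higher at both stages, 6 of them called and 0 in the fit of 8 libraries (2 higher there at an unadjusted p under 0.05). The neuronal tubulin Tubb3 had 11.8 and 43.1 TPM in CPF kidneys and 6.79 and 11.8 TPM in DMSO kidneys, a rise of 1.25 ± 0.28.

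Muscle genes had larger ratios at E12.5. Of 18 tested, 16 were higher at both stages, and 12 were called higher, where 4.61% of all genes were called higher. In the fit of 8 libraries 5 were also called. List medians were 1.63 at E12.5 and 0.71 at E14.5. Mylpf, the fast skeletal myosin light chain, had 176 and 176 TPM in CPF kidneys, against 45.2 and 60.5 TPM in DMSO kidneys (1.73 ± 0.23; adjusted p = 4.79e-10). Actc1, cardiac actin, had 261 and 161 TPM in CPF kidneys and 92.7 and 75.8 TPM in DMSO kidneys. Sln, sarcolipin of the muscle calcium pump, had 14.01 and 23.4 TPM in CPF kidneys, against 1.86 and 0.950 TPM in DMSO kidneys. The list summed to 1089 and 759.8 TPM in CPF kidneys, against 375 and 376 TPM in DMSO kidneys. Macrophage and myeloid genes were higher at both stages in 13 of 16 tested, with 5 called: Lyz2 (lysozyme) had 18.9 and 39.9 TPM in CPF kidneys and 4.74 and 20.5 TPM in DMSO kidneys. The combined lists of other organs and blood hold 140 of the 12747 genes tested. Among the 9315 genes averaging 5 TPM or more, 137 were more than 2-fold higher at both stages, 39 of them on these lists. How many of the 140 average 5 TPM or more was not counted, so the shares have unlike bases. Of these 140, 98 were higher and 13 lower at both stages, against 26.8% and 35.4% of all genes. The part that tissue from outside the kidney or blood has in these levels was not tested.

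**Figure D2:**
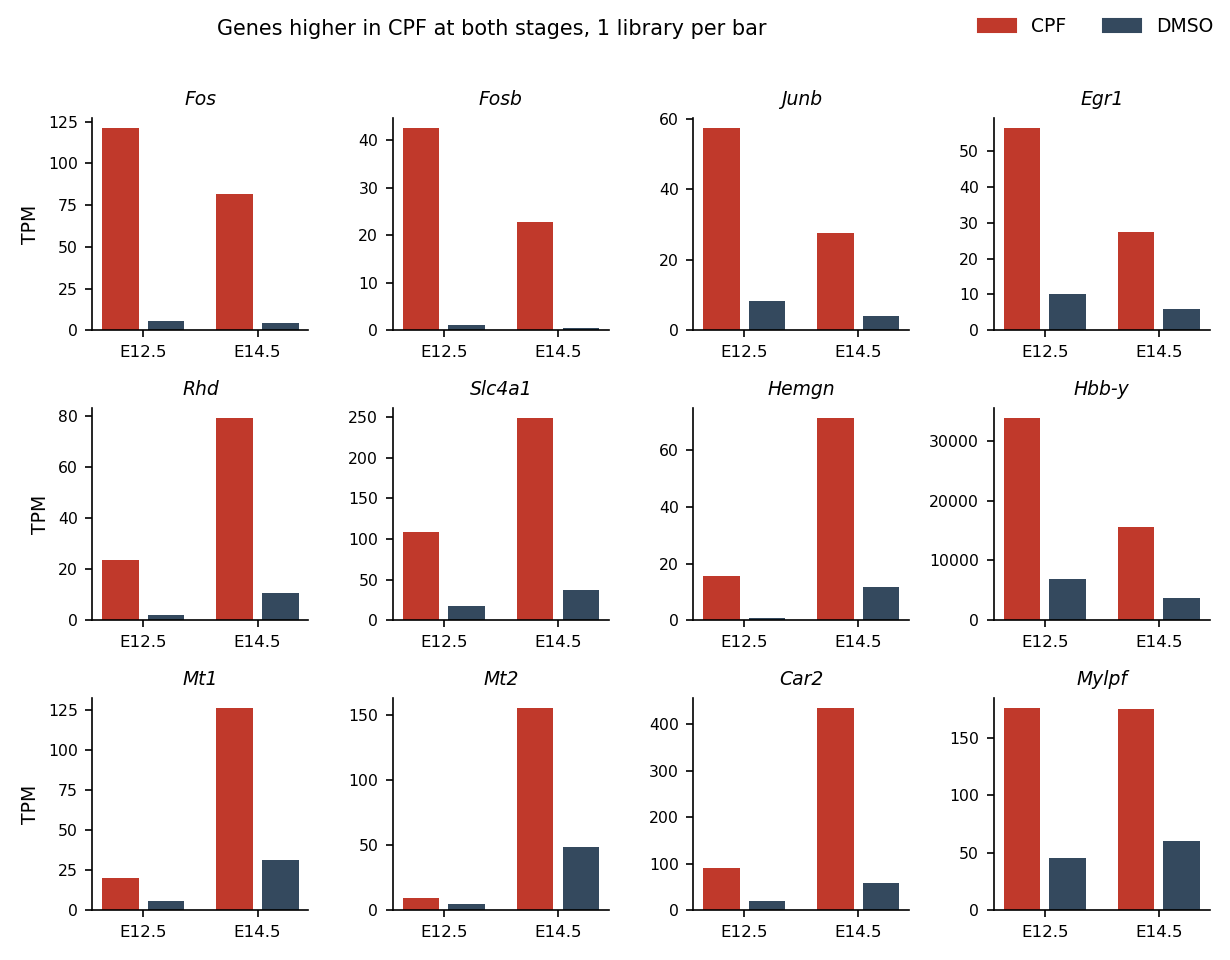
TPM of 12 genes higher in CPF at both stages, 1 bar per library, CPF left of DMSO at each stage, each panel with its own linear axis from 0. Fos, Fosb, Junb and Egr1 are higher at E12.5 than at E14.5 in both agents, whereas Rhd, Slc4a1, Mt1 and Mt2 are higher at E14.5.

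The metallothionein genes, which encode small metal-binding proteins and respond to zinc through the factor MTF1, were higher in CPF. Mt1 had 20.4 and 127 TPM in CPF kidneys, against 5.67 and 31.2 TPM in DMSO kidneys, a rise of 1.83 ± 0.25 (adjusted p = 1.43e-09), and it was also called in the fit of 8 libraries. Mt2 had 9.12 and 156 TPM in CPF kidneys and 4.36 and 48.7 TPM in DMSO kidneys, a rise of 1.29 ± 0.26. The DMSO level of E14.5 exceeded the CPF level of E12.5 for both genes, so only values of the same stage compare the agents. Slc30a10, a metal exporter, rose by 1.16 ± 0.36. The other 3 tested members of the list did not pass. Liver also makes metallothioneins, and liver genes were higher in the same libraries as given above. Whether liver RNA has a part in the Mt1 and Mt2 levels was not tested. Car2, the carbonic anhydrase of red cells and of intercalated kidney cells, had 89.7 and 435 TPM in CPF kidneys, against 19.4 and 57.7 TPM in DMSO kidneys (2.53 ± 0.23).

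The promoters of the neighbouring genes Mt1 (chr8:94178839-94179138) and Mt2 (chr8:94172368-94172667), both on the plus strand, are printed because MTF1 acts through the metal response element. Capitals mark its core TGCNCNC on either strand.
Mt1: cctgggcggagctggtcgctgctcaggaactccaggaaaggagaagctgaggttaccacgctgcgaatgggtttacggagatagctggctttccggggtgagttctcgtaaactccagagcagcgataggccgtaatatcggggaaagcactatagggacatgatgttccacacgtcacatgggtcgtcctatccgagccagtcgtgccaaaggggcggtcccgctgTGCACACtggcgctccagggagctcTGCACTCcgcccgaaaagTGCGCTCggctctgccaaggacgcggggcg
Mt2: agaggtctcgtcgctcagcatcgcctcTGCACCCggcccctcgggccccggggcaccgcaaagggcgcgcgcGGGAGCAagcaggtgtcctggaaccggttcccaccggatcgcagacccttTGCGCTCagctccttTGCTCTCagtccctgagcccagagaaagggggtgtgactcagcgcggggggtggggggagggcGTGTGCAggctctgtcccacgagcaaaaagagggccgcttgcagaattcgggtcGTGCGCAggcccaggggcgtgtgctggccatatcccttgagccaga
The core occurred 3 times in the Mt1 window and 6 times in the Mt2 window. At least 1 copy is in 50.4% of all 27025 windows and in those of all 6 tested members of the metal list, 3 of which did not pass the test.

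Transcription factors of the kidney mesenchyme were lower in CPF at both stages. Of 13 tested genes of general kidney identity, 12 were lower at both stages, where 35.4% of all genes were. Of the 13, 7 were called lower, where 1.94% of all genes were. However, 0 were called in the fit of 8 libraries (7 lower at an unadjusted p under 0.05). The list's median log2 ratio was -0.71 at E12.5 and -0.81 at E14.5. Foxd1, the stromal progenitor factor, had 58.2 and 24.4 TPM in CPF kidneys, against 128 and 52.1 TPM in DMSO kidneys (-1.09 ± 0.24; adjusted p = 0.000312). Six2, which keeps nephron progenitors undifferentiated, had 45.6 and 18.1 TPM in CPF kidneys and 82.3 and 50.5 TPM in DMSO kidneys (-1.13 ± 0.24; adjusted p = 0.000238). Gdnf, the ligand of the RET receptor on the ureteric bud, had 28.7 and 19.6 TPM in CPF kidneys, against 46.0 and 44.7 TPM in DMSO kidneys (-0.90 ± 0.25). For Foxd1 the CPF level of E12.5 was above the DMSO level of E14.5, so only values of the same stage compare the agents.

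Sall1, a zinc finger factor needed for bud outgrowth, had 90.4 and 55.7 TPM in CPF kidneys, against 149 and 101 TPM in DMSO kidneys, a drop of 0.78 ± 0.23 on the log2 scale. Pax2, expressed in mesenchyme and bud, had 25.7 and 10.5 TPM in CPF kidneys and 37.1 and 30.1 TPM in DMSO kidneys. Uncx, a homeobox factor, had 45.4 and 21.3 TPM in CPF kidneys, against 88.3 and 48.6 TPM in DMSO kidneys (-1.05 ± 0.24). Wt1 and Osr1 were lower at both stages without passing (adjusted p = 0.242 and 0.121), and Eya1, listed with 2 transcripts, was at 1.64 and 3.23 TPM in CPF kidneys and 4.46 and 2.47 TPM in DMSO kidneys. Across the nephron progenitor list, 15 of 20 were lower at both stages and 6 were called, 0 of them in the fit of 8 libraries (6 lower there at an unadjusted p under 0.05). Of all genes 35.4% were lower at both stages and 1.94% were called lower. Spock2, a proteoglycan of progenitors, fell by 0.80 ± 0.23, whereas the most abundant members Cdh11 and Robo2 differed by -0.06 and -0.25 and did not pass. Summed, the list stood at 1503 and 1202 TPM in CPF kidneys, against 1980.3 and 1458 TPM in DMSO kidneys.

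Ureteric bud and duct genes were lower at both stages in 14 of 20 tested, with 0 called in either fit (at an unadjusted p under 0.05, 1 higher and 2 lower in the fit of 4 libraries and 1 of each in the fit of 8). Etv4, a target of GDNF and RET signalling, had 83.1 and 56.7 TPM in CPF kidneys and 125 and 92.6 TPM in DMSO kidneys (adjusted p = 0.0781). Wnt4, which starts nephron formation, had 15.8 and 11.8 TPM in CPF kidneys, against 31.7 and 12.4 TPM in DMSO kidneys (adjusted p = 0.313). Renal stroma genes split, 8 higher and 6 lower at both stages of 17 tested, 3 called higher and Foxd1 the 1 called lower. For both lists the shares of all genes were 26.8% higher and 35.4% lower at both stages, with 4.61% and 1.94% called. Lum, a matrix proteoglycan, had 97.8 and 281 TPM in CPF kidneys, against 17.4 and 139.9 TPM in DMSO kidneys (1.71 ± 0.24).

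Genes named for the size of their drop come from several groups. Foxc2, a forkhead factor of mesenchyme and podocytes, had 34.5 and 16.2 TPM in CPF kidneys, against 104 and 36.5 TPM in DMSO kidneys (-1.35 ± 0.24; adjusted p = 7.75e-06). Its relative Foxd2 had 10.7 and 6.03 TPM in CPF kidneys and 29.3 and 13.6 TPM in DMSO kidneys. Efnb1, a membrane ligand of Eph receptors, had 46.7 and 28.2 TPM in CPF kidneys, against 105 and 56.1 TPM in DMSO kidneys (-1.06 ± 0.24). The linker histone gene H1fx fell by 1.23 ± 0.26, the complex II assembly factor Sdhaf1 by 1.05 ± 0.25 and Rsph3b, of the cilium's radial spokes, by 1.33 ± 0.30. Rps2 was called lower too, but it has many processed copies in the genome, its 8 libraries spanned 24.8 to 755 TPM, and its value is uncertain.

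**Figure D3:**
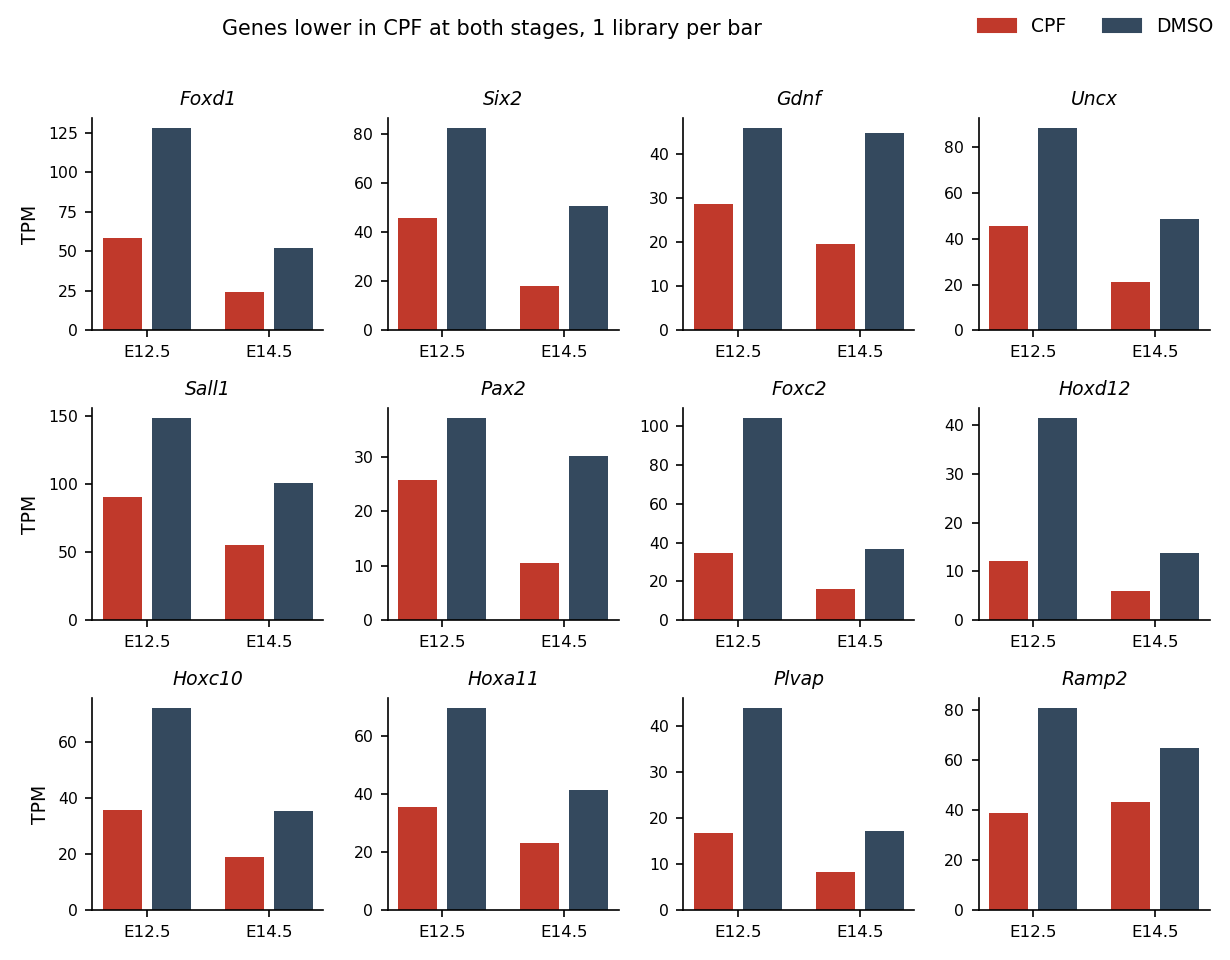
TPM of 12 genes lower in CPF at both stages, 1 bar per library, CPF left of DMSO at each stage, each panel with its own linear axis from 0. Within each stage the CPF bar is the shorter one for all 12, and levels are lower at E14.5 than at E12.5 in both agents for all but Ramp2 in CPF.

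Hox genes, which give positional identity along the body axis in the order of their place in 4 clusters, were lower across all clusters. Of 34 tested, 30 were lower at both stages and 10 were called lower, 6 of them in cluster D. Of all genes 35.4% were lower at both stages and 1.94% were called lower. In the fit of 8 libraries 0 were called (12 lower at an unadjusted p under 0.05). List medians at E12.5 and E14.5 were -0.70 and -0.42 for cluster A, -0.57 and -0.47 for B, -0.61 and -0.56 for C, and -0.84 and -0.84 for D. Hoxd12 had 12.1 and 6.05 TPM in CPF kidneys, against 41.4 and 13.8 TPM in DMSO kidneys (-1.38 ± 0.28; adjusted p = 9.24e-05). Hoxc11 had 4.75 and 1.54 TPM in CPF kidneys and 16.1 and 5.17 TPM in DMSO kidneys (-1.43 ± 0.33). Its paralogues Hoxa11 and Hoxd11, which act together in the metanephric mesenchyme, fell by 0.88 ± 0.24 and 0.97 ± 0.28. Hoxd10, with the highest mean of its cluster, had 71.2 and 43.2 TPM in CPF kidneys, against 122 and 70.5 TPM in DMSO kidneys. The last genes of 2 clusters were exceptions: log2 ratios at the 2 stages were -1.01 and 1.29 for Hoxd13 and -0.17 and 1.11 for Hoxa13, at levels of 0.225 to 7.56 TPM.

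**Figure D4:**
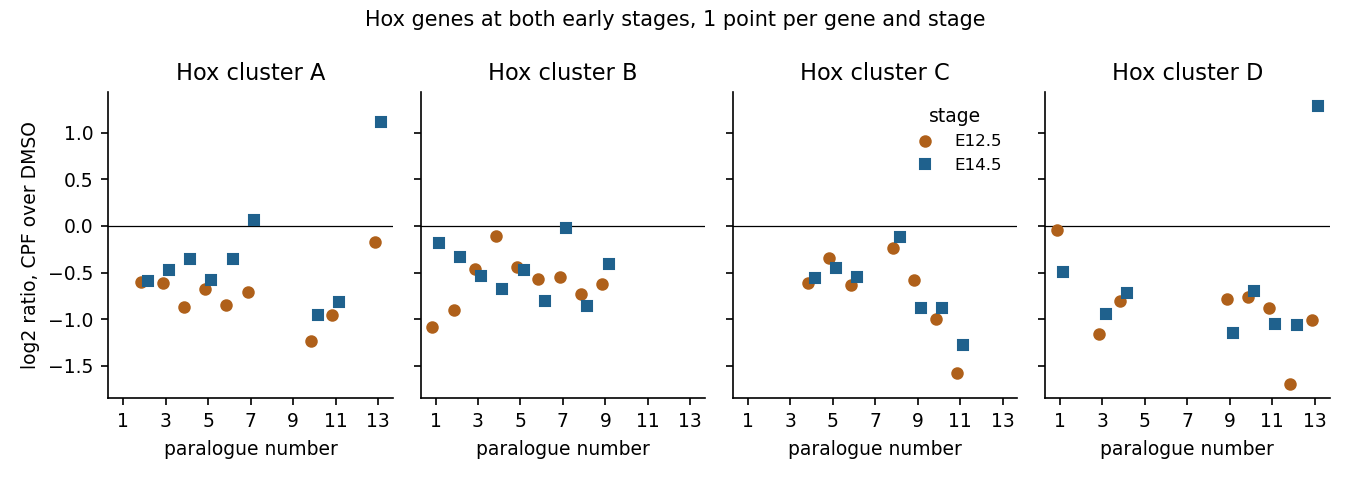
Log2 ratio of CPF over DMSO for all but 1 of the tested Hox genes, by paralogue number within its cluster, circles for E12.5 and squares for E14.5. All of clusters B and C lie below 0, and the points above 0 are Hoxa7, Hoxa13 and Hoxd13 at E14.5.

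Endothelial genes were lower in CPF at the early stages. Of 11 tested, 10 were lower at both stages and 4 were called, 0 of them in the fit of 8 libraries (5 lower there at an unadjusted p under 0.05). Of all genes 35.4% were lower at both stages and 1.94% were called lower. Plvap, of the diaphragms of fenestrated vessels, had 16.9 and 8.32 TPM in CPF kidneys, against 44.1 and 17.1 TPM in DMSO kidneys (-1.15 ± 0.27; adjusted p = 0.0012). Ramp2, a receptor partner for adrenomedullin, had 38.6 and 43.2 TPM in CPF kidneys and 80.7 and 64.5 TPM in DMSO kidneys. Cdh5, VE-cadherin, had 46.0 and 38.3 TPM in CPF kidneys, against 64.2 and 41.9 TPM in DMSO kidneys, and did not pass (adjusted p = 0.553). The list summed to 223 and 189 TPM in CPF kidneys, against 392.4 and 254 TPM in DMSO kidneys.

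Among 16 tested genes that handle organophosphates or acetylcholine, 7 were higher and 1 lower at both stages, where 26.8% and 35.4% of all genes were. One was called higher and 1 lower, where 4.61% and 1.94% of all genes were, and 0 were called in the fit of 8 libraries (1 higher and 1 lower at an unadjusted p under 0.05). Pon1, paraoxonase, which hydrolyses chlorpyrifos oxon and is made by liver, had 1.41 and 2.62 TPM in CPF kidneys, against 0.107 and 0.327 TPM in DMSO kidneys. It is the 1 called higher, but it passed the filter on low values only through the CPF libraries, so it had to differ and its test supports nothing. Bche, butyrylcholinesterase, had 14.6 and 21.7 TPM in CPF kidneys and 9.45 and 15.5 TPM in DMSO kidneys (0.52 ± 0.28; adjusted p = 0.314). Lypla2, a thioesterase of the serine hydrolase family, fell by 0.84 ± 0.24. Ache, the main target of the oxon, was listed at 0 in each of the 4 libraries, and no level can be read for it.

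Among stress pathways, the oxidative stress and heat shock lists had more genes higher than lower at both stages, where 26.8% of all genes were higher and 35.4% lower, and few calls. The oxidative stress list had 11 of 19 genes higher and 2 lower at both stages and 1 called higher, where 4.61% of all genes were: Gclm, a subunit of the glutathione synthesis enzyme, with 31.8 and 58.3 TPM in CPF kidneys and 18.9 and 22.3 TPM in DMSO kidneys. Hmox1, heme oxygenase, had 40.8 and 34.3 TPM in CPF kidneys, against 24.7 and 20.4 TPM in DMSO kidneys, and did not pass (adjusted p = 0.0646), nor did Nqo1 (adjusted p = 0.427). Among heat shock genes 8 of 11 were higher and 0 lower at both stages and 1, Hspa1b, was called higher. Of 13 p53 targets 5 were higher and 5 lower at both stages, with Btg2 and Perp called higher. Glucocorticoid response genes showed 2 higher and 3 lower at both stages of 12, with Dusp1 called higher and Ddit4 lower. Calls in these lists stand beside 4.61% of all genes called higher and 1.94% called lower. In the replication and mitosis list 7 were higher and 4 lower at both stages of 24. Plk1, a mitotic kinase, was the 1 called, and it was lower in CPF, where 1.94% of all genes were called lower. Plk1 had 51.8 and 33.5 TPM in CPF kidneys against 89.0 and 53.02 TPM in DMSO kidneys. Mki67, the proliferation antigen, had 419.8 and 573 TPM in CPF kidneys and 357 and 375 TPM in DMSO kidneys (adjusted p = 0.406).

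**Figure D5:**
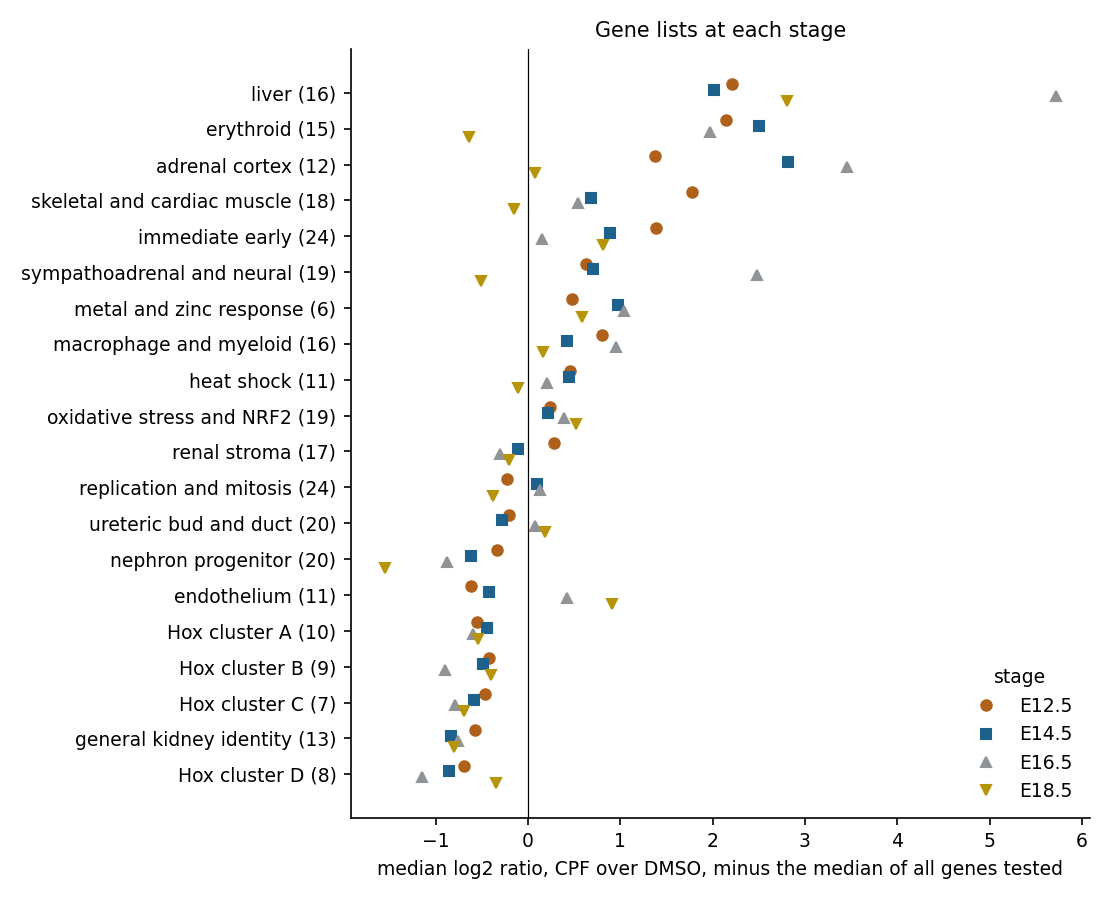
Median log2 ratio of CPF over DMSO for 20 gene lists at each of the 4 stages, minus the median of all genes tested at that stage (numbers of tested genes in brackets). Liver, erythroid and adrenal lists stand above 1 at E12.5 and E14.5, and the kidney identity and Hox lists stand below 0 at all 4 stages.

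MicroRNA precursors were common among noncoding genes that differed in either direction: 19 of 29 (65.5%) of those more than 2-fold higher at both stages and 11 of 12 (91.7%) of those more than 2-fold lower. They were 253 of the 676 noncoding genes (37.4%) averaging 5 TPM or more. The hairpins printed below are 60 to 107 bases long and rest on few reads. Mir20a, of the cluster that also holds Mir17, had 36.1 and 17.7 TPM in CPF kidneys, against 3.04 and 0.928 TPM in DMSO kidneys, or an estimated 38 and 20 reads against 4 and 1. Mir379 had 29.5 and 24.6 TPM in CPF kidneys and 2.48 and 3.03 TPM in DMSO kidneys, about 19 and 17 reads against 2 and 2. Mir300 was lower, with 1.29 and 2.41 TPM in CPF kidneys and 8.25 and 25.2 TPM in DMSO kidneys, about 1 and 2 reads against 8 and 20. All 3 were called in both fits.

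The mature microRNAs of these hairpins are shown with those of Mir380 and Mir455, also higher, and of Mir3098 and Mir5616, also lower, since the seed (bases 2 to 8, in capitals) sets which messages they pair with. The sequences are from RefSeq (GRCm38.p6), 1 arm each, and total RNA reads do not tell which arm is used.
mmu-miR-20a-5p: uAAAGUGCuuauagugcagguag
mmu-miR-379-5p: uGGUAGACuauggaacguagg
mmu-miR-380-5p: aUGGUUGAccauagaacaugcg
mmu-miR-455-5p: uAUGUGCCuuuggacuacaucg
mmu-miR-300-3p: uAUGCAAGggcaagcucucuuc
mmu-miR-3098-3p: uUCUGCUGccugccuuuagga
mmu-miR-5616-5p: uUUCCUCUcaucacaaguuga
No seed is shared among these 7. Mir379 (chr12:109709060-109709125), Mir380 (chr12:109711803-109711863) and Mir300 (chr12:109724313-109724391) lie on the plus strand of the same imprinted cluster, yet Mir300 ran opposite to the other two. Rian, a long noncoding RNA of that cluster, had 358 and 426 TPM in CPF kidneys, against 162 and 273 TPM in DMSO kidneys (0.89 ± 0.25; adjusted p = 0.0104). Of the 35 tested genes that start within 50 kb of Mir379, 23 were higher and 2 lower at both stages. Of the 35, 20 were called higher and Mir300 was the 1 called lower. Among all genes, 26.8% were higher and 35.4% lower at both stages, and 4.61% were called higher and 1.94% lower. At Mir20a (chr14:115044157-115044263) 5 tested genes start within 2 kb, itself included. Mir17 rose by 1.02 ± 0.28 and Mir19a by 0.82 ± 0.26, while Mir18 differed by -0.38 ± 0.27 and the host transcript Mir17hg by -0.12 ± 0.24 without passing. As annotated, Mir17hg (chr14:115044390-115046728) starts after Mir20a ends and contains none of these hairpins. Whether reads at a hairpin come from the hairpin or from a longer transcript across it was not tested. These windows were set, and Rian was chosen, after values in both clusters were seen.

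Whether the CPF effect differed between the early and the later stages was tested as early minus late in all 8 libraries. In simulated data this test found 4.48% of differences of 1 on the log2 scale and 76.1% of those of 2. Most differences of 1 would therefore be missed. Of 13677 genes tested, 2 (0.0146%) were higher early than late and 2 (0.0146%) lower. Those counts rest on single pairs: they were 174 and 1387 without the E16.5 pair, 73 and 70 without the E18.5 pair, 1 and 1 without the E12.5 pair and 0 and 0 without the E14.5 pair. Fam46c, a poly(A) polymerase gene that is high in red cell precursors, had 118 and 188 TPM in CPF kidneys at E12.5 and E14.5, against 13.8 and 22.8 TPM in DMSO kidneys. At E16.5 and E18.5 it had 99.2 and 43.4 TPM in CPF kidneys and 73.9 and 68.2 TPM in DMSO kidneys, so the excess was early (early minus late 3.11 ± 0.41; adjusted p = 0.0186). Mir20a was the other gene higher early (3.72 ± 0.54; adjusted p = 0.0412). Alb and Trf (transferrin) were higher in CPF at all 4 stages but by less early than late, with differences of -4.47 ± 0.48 and -3.67 ± 0.44 (adjusted p = 0.00539 and 0.00897). Of the 137 genes more than 2-fold higher at both early stages, 85 were also more than 2-fold higher at E16.5 and 57 at E18.5. For the 23 lower genes those counts were 8 and 4. How many of all genes passed 2-fold at the later stages was not counted. Of the 12747 genes tested, 7923 were higher in CPF at E16.5 and 10566 at E18.5, with median log2 ratios of 0.13 and 0.53. At these stages the RNase P and RNase MRP RNAs took 21.8 and 21.3% of the TPM in CPF, against 31.0 and 41.8% in DMSO. The part of this shift in the counts was not tested.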

How the data were processed

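Total RNA of embryonic mouse kidney was sequenced, 1 library for each agent and stage. The authors deposited TPM values for each RefSeq transcript, and the submitters' processing notes name Trimmomatic, STAR and the mm10 build. The tool that gave each transcript its reads is not named in those notes. The 32862 transcripts were summed to 24151 genes by symbol, with 27 symbols that had turned into dates or numbers restored by accession. Genes with at least 1 TPM in at least 2 of the 4 libraries were tested with limma 3.58.1 (R 4.3.3, Python 3.11.15) on log2(TPM + 1), with stage and agent as terms, a variance trend and Benjamini-Hochberg adjustment over all genes. A count test would have been used for read counts, and the limma form was used because the files hold TPM. Stage pairs the libraries by design, as 1 CPF and 1 DMSO library were made at each stage. Early minus late was tested in the 8 libraries with the same settings.

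The scripts were tested on simulated data. The depth behind the TPM values is an estimate, and 1 library per group and stage limits precision. Members and gene lists were chosen with earlier results of these data known. Named genes are the coding and noncoding genes with the largest smaller log2 ratio of the 2 stages at a mean of at least 5 TPM, the genes with the smallest p, leading and most abundant list members, and a set of kidney and toxicology genes. Gata1, Ier2, Jun, Mir17, Mir18, Mir19a, Mir17hg, Rian, Hoxa7, Hoxa13 and Hoxd13 fall outside that rule and were chosen after their values were seen. Alternatives were quantile normalization, scaling to coding transcripts, other filters and pseudocounts, single-transcript genes, robust variance moderation, no stage term, 8 libraries, and leaving out each library or stage. Some genes are not reported here. Promoter and microRNA sequences are from RefSeq (GRCm38.p6).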

Additional observations from a re-analysis of the deposited data

Results flagged for a closer look

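The CPF effect differed between the early and the later stages for 4 genes in the limma test of early minus late. Alb differed by -4.47 (adjusted p = 0.00539) and Trf by -3.67 (adjusted p = 0.00897), both higher in CPF at all 4 stages. Fam46c differed by 3.11 (adjusted p = 0.0186) and Mir20a by 3.72 (adjusted p = 0.0412), both higher in CPF early.

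The median log2 ratio of 2 lists was below 0 at both early stages and above 0 at both later stages. For ureteric bud and duct genes it was -0.35, -0.25, 0.21 and 0.71 from E12.5 to E18.5, a difference of -0.90 early minus late. For endothelial genes it was -0.76, -0.40, 0.56 and 1.44, a difference of -1.57. These list differences were not tested, and the median of all genes was 0.13 at E16.5 and 0.53 at E18.5.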

How the results depend on the processing

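The counts of called genes depended on the settings. Against 587 higher and 247 lower, quantile normalization gave 4 and 0, scaling to coding transcripts 197 and 68, no filter 20 and 0, the fit of 8 libraries 84 and 9, that fit without the E12.5 pair 47 and 12, and without the E14.5 pair 11 and 0. The stricter filter gave 359 higher. The stage is the replicate block here: without that pairing 0 and 0 were called, and leaving out 1 library as well gave 0 to 338 higher and 0 to 48 lower (30 without the CPF library of E14.5). Counts at both stages over 2-fold were 264 higher and 51 lower with no filter, and 74 and 6 with a pseudocount of 5. Of 72 named genes that were called, 4 stayed called under quantile normalization and 27 in the fit of 8 libraries. All 72 kept their direction under the other scalings, filters and pseudocounts that gave them a value. Filters leave a gene's values as they are, and a pseudocount keeps its sign within each stage. The genes were also picked as called in these libraries, so their kept direction says little about stability.

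Early minus late calls, higher and lower, were 0 and 0 with quantile normalization, coding scaling, no filter and a pseudocount of 5, 61 and 218 with the stricter filter, 10 and 8 with robust moderation, 174 and 1387 without the E16.5 pair, 73 and 70 without E18.5, 1 and 1 without E12.5 and 0 and 0 without E14.5. A pseudocount of 0.1 gave 1 higher and single-transcript genes 4 higher.

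Of 161 alternative list medians relative to all genes, 33 moved by more than the SD between the 2 stages, as follows. The sign turned in 6 of the 161, which moved by less than that and are not among the values below. With a pseudocount of 5 they were -0.41 for Hox cluster A, -0.34 for B, -0.70 for D, 0.71 for immediate early, 0.0887 for organophosphate, 0.176 for oxidative stress, 0.34 for heat shock, 1.52 for liver, 1.92 for erythroid and 0.45 for sympathoadrenal genes. With a pseudocount of 0.1 they were 0.158 for organophosphate, 2.71 for liver, 2.58 for erythroid and 0.88 for sympathoadrenal genes. With no filter they were -0.31 for endothelium, 0.0974 for organophosphate, 0.153 for oxidative stress, 0.35 for heat shock, 1.93 for liver and 0.57 for sympathoadrenal genes. With the stricter filter they were 0.133 for metal, 0.14 for organophosphate, 0.32 for oxidative stress, 0.40 for heat shock and 0.88 for sympathoadrenal genes. Quantile normalization gave 0.172 for organophosphate, 0.18 for oxidative stress, 0.39 for heat shock and 0.63 for sympathoadrenal genes. Coding scaling gave 0.153 for organophosphate genes. Single-transcript genes gave -0.52 for Hox cluster B, 0.127 for organophosphate and 0.29 for oxidative stress genes.

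The sign turned for these genes: in the fit of 8 libraries without the E12.5 pair Cdh11 (0.027), Eya1 (0.28), Hoxa7 (0.065), in that fit without the E14.5 pair Hoxa13 (-0.17), Hoxd13 (-1.01), Mir17hg (0.67), and with a pseudocount of 5 Hoxd13 (-0.087). Leaving out 1 of the 4 libraries with no stage term gave ranges across 0 for Cdh11 -0.28 to 0.16 (0.072 without CPF E14.5), Cdh5 -0.60 to 0.0013, Hoxa13 -0.43 to 1.37, Hoxa7 -0.67 to 0.022, Hoxd13 -1.23 to 1.51 (-0.083 without CPF E12.5), Ier2 -0.47 to 0.90 (-0.46 without CPF E12.5), Jun -0.049 to 1.26, Mir17hg -0.88 to 0.64, Mir18 -1.15 to 0.39 (0.075 without DMSO E14.5), Mt2 -0.69 to 3.26 (-0.32 without DMSO E12.5), Wnt4 -1.16 to 0.13. With 1 library left out and no stage term, the agents hold unlike stages, so those differences mix agent with stage. A change of sign there does not mean that the stages disagree. Mt2 was higher in CPF within each stage, as given above. Without an early pair, the fit of 8 libraries takes its early difference from the other early pair alone. No further cause of these changes was tested.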
